A study of Mus musculus with 39 samples.

Results

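The 4 young liver libraries were compared with the 4 young kidney and the 4 young lung libraries, and genes were kept whose counts were higher, or lower, in liver than in both of the other tissues. Transcripts were measured in whole tissue by bulk MARS-seq, which reads and counts the 3′ ends of transcripts. These 12 libraries are part of the 30 in the kidney, liver and lung table and of the 39 in the series. All mice of the series were Prf1-/- animals of the C57BL/6 strain, which lack perforin, the pore-forming protein of cytotoxic granules, so no library here comes from a wild-type mouse. The young mice were 3 months old at sacrifice and received no treatment. The labels do not give the sex of the mice, while the study's figure title for the ABT-737 experiment names male mice. The old mice used for a repeat were 20 months old and received vehicle, with 3 libraries a tissue, or ABT-737 at 25 mg per kg, a drug that inhibits BCL-2 family proteins, also with 3 libraries a tissue. The design names its samples biological replicates, and the labels do not say whether liver, kidney and lung libraries of the same number came from the same mouse.

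The liver is built mostly of hepatocytes, which make the bulk of the plasma proteins, assemble lipoproteins, detoxify ammonia through the urea cycle, make bile acids and clear foreign compounds with cytochrome P450 enzymes. Hepatocytes near the portal vein and near the central vein divide these tasks between them, and the sinusoids hold fenestrated endothelium, resident macrophages called Kupffer cells, and stellate cells that store vitamin A. The identity of hepatocytes rests on transcription factors such as HNF4A, the FOXA proteins and C/EBP-alpha. Kidney tubules share part of this metabolism, including gluconeogenesis, while the lung shares little of it.

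Liver libraries were the shallowest of the 3 tissues. Total counts ranged from 527995 to 672778 in liver, from 2218423 to 3513311 in kidney and from 1506934 to 2033866 in lung. Between 10730 and 11242 genes had a count in a liver library, against 14450 to 15048 in kidney and 14596 to 15066 in lung. With each library thinned to 527995 counts, the ranges were 10710 to 10856 in liver, 12585 to 12810 in kidney and 13223 to 13460 in lung, so the order was kept at equal depth. A total of 3 counts over the 4 libraries, taken as the floor, corresponded to 1.76 scaled CPM in liver, 0.232 in kidney and 0.331 in lung. A gene absent from liver was therefore known less precisely than one absent from kidney or lung. Levels are given below as scaled CPM, the usual counts-per-library-total unit, with the total multiplied by its TMM factor. The targeted gene Prf1 had 2 counts in all liver libraries together, 24 in kidney and 66 in lung. The deleted part of Prf1 is not given in the labels, so these counts at its transcript check nothing about the genotype.

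Liver counts were concentrated in few genes. The 10 most abundant genes of each library held 19.2% ± 1.09 (SD, n = 4) of the counts in liver, 6.71% ± 0.538 in kidney and 10.2% ± 1.03 in lung. The liver share exceeded each of the others by an exact permutation test (two-sided p = 0.0286 each, the smallest that 4 against 4 libraries allow). Between 133 and 149 genes were enough to reach 50% of the counts in liver, against 566 to 637 in kidney and 494 to 601 in lung. The genes with the largest shares encode secreted proteins of the plasma. Alb, which encodes albumin, held 3.53% ± 0.352 (SD, n = 4) of the liver counts, Apoe 3.41% ± 0.165, Serpina1e 2.55% ± 0.282 and Ahsg, the gene of fetuin-A, 1.97% ± 0.312. They were followed by Apoc1, Trf (transferrin), Apoa2, Ttr (transthyretin), Serpina3k and Serpina1c, at means between 1.01% and 1.67%. Serpina1c, Serpina1e and Serpina3k belong to families of near-identical genes, and the division of reads among their copies is uncertain.

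Alb (NM_009654, chromosome 5, 90460870 to 90476602, mm10) was at 55829, 43617, 51193 and 47734 CPM in the 4 livers, at 3.41, 6.97, 7.88 and 4.90 CPM in the kidneys and at 10.6, 7.24, 0.433 and 12.1 CPM in the lungs. Every liver was above every kidney and lung, and the fitted log2 difference was 12.998 ± 0.48 against kidney and 12.64 ± 0.48 against lung (± SE, edgeR, adjusted p = 7.15e-20 and 8.58e-20). Apoe (NM_009696, chromosome 7, 19696244 to 19699188), which encodes the ligand that carries lipoprotein remnants to their receptors, was at 50619.5, 46975, 45362 and 48446 CPM in liver, 363, 331, 452 and 342 in kidney and 1147, 1200.5, 1008 and 1479 in lung. It was the member of these 10 genes with the highest level outside the liver, and its log2 differences were 7.01 ± 0.30 against kidney and 5.31 ± 0.27 against lung. Ttr, the carrier of thyroid hormone and of retinol-binding protein, was at 20462, 13070.4, 15076 and 14239.5 CPM in liver, 298, 253, 209.8 and 418 in kidney and 18.00, 3.90, 0.433 and 7.53 in lung. Its difference from kidney, 5.74 ± 0.36, was therefore smaller than that from lung, 10.97 ± 0.47, though the contrast between these differences was not tested.

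**Figure D1:**
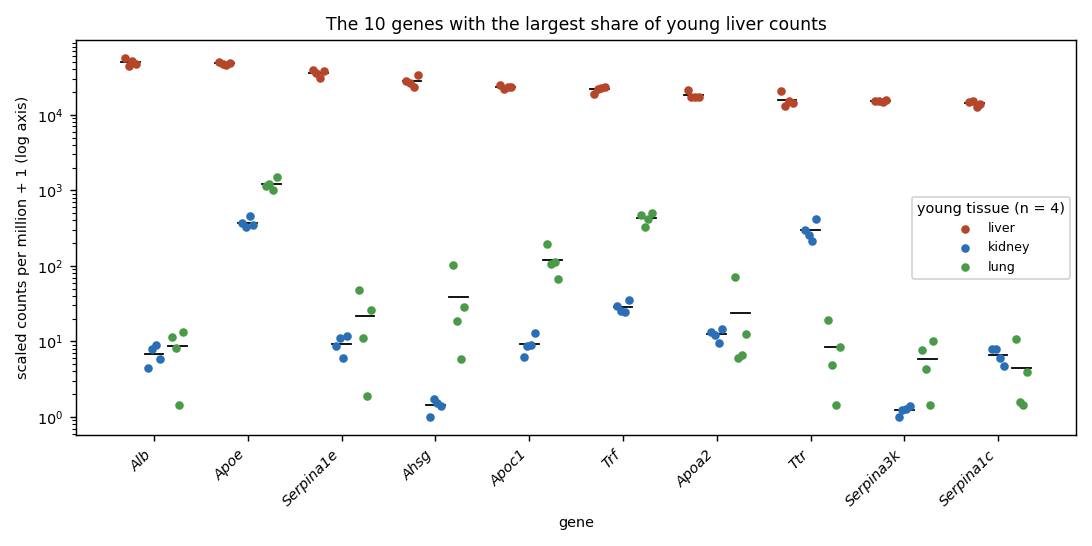
Levels of the 10 genes with the largest share of young liver counts, as scaled CPM plus 1 on a log axis. Each point is 1 library of liver, kidney or lung (4 each) and each bar is the mean of 4. All liver points lie above all kidney and lung points of the same gene, and Apoe, Trf and Ttr keep the highest levels in another tissue.

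The promoters of Alb, Apoe, Ahsg, Apoa2 and Apoa1, chosen by share of liver counts among the genes higher than in both and outside the near-identical families, are shown because these genes moved together. They are taken from RefSeq (GRCm38.p6), which lists promoters for 9151 of the 11867 genes tested, and run from 250 bases before the transcription start to 50 bases after it. Apoc1, Trf and Ttr have larger shares than Apoa1 and their promoters are not shown here. Capitals mark the motifs searched on both strands, which were CAAAGTCCA for HNF4A, TGTTTAC for FOXA and TTGCNNAA for C/EBP, and TATAAA in the 60 bases before the start on the strand of the gene.
Alb (chr5:90460620-90460919, forward strand): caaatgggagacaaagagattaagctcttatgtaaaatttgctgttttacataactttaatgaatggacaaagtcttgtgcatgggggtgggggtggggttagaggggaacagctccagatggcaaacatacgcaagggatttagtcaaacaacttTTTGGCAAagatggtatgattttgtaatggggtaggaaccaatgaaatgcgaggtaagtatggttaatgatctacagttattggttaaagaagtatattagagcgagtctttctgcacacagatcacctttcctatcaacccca
Apoe (chr7:19699139-19699438, reverse strand): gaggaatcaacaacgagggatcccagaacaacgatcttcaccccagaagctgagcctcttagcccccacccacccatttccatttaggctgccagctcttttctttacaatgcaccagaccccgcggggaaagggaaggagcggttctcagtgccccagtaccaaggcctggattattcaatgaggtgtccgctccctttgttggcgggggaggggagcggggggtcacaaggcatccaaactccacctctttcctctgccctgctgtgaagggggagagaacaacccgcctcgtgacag
Ahsg (chr16:22891765-22892064, forward strand): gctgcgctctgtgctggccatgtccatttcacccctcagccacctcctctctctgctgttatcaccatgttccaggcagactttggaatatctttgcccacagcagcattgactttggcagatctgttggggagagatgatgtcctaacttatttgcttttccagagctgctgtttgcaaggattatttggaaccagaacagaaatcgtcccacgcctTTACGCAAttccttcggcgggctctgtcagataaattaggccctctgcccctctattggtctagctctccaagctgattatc
Apoa2 (chr1:171224804-171225103, forward strand): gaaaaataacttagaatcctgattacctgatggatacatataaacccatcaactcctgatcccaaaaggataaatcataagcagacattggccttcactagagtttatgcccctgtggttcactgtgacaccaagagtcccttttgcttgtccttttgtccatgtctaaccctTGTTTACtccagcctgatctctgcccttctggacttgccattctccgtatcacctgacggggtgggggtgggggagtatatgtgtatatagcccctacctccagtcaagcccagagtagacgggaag
Apoa1 (chr9:46228380-46228679, forward strand): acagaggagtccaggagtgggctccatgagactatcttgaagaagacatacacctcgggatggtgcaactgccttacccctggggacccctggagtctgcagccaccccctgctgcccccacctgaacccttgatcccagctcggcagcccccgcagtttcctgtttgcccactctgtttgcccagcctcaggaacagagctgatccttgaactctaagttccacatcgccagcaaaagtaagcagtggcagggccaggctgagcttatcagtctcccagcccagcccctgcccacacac

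In the Alb promoter the C/EBP letters lie at positions -94 to -87, counted from the transcription start at 0. Ahsg holds the C/EBP letters at -32 to -25 and Apoa2 the FOXA letters at -77 to -71, while the Apoe and Apoa1 windows hold none of the motifs. Over all genes with a promoter entry, the C/EBP letters stood in 15.2% of the 1245 promoters of genes higher than in both, in 9.59% of the 1845 of genes lower than in both and in 10.4% of the 9151 of all genes tested. The FOXA letters stood in 4.74%, 2.17% and 3.37%, and the HNF4A letters in 1.04%, 0.542% and 0.546%. TATAAA stood in 4.34%, 2.71% and 2.33%. A match is a description of letters and not a bound site.

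Across all genes, 11867 of 24537 passed edgeR's expression filter. Against kidney, 2111 were higher in liver (17.8% of those tested) and 3995 lower (33.7%). Against lung, 3417 were higher (28.8%) and 4818 lower (40.6%). Both comparisons share the liver libraries. There were 1608 genes higher in liver than in both (13.6%) and 2442 lower than in both (20.6%), by edgeR's quasi-likelihood test at an adjusted p under 0.05. Of the genes higher than in both, 1400 had all 4 liver values above all 8 others, and of those lower than in both, 2132 had all 4 below. These genes were called on the same values, so this lack of overlap is no separate support. The share without overlap over all genes tested is not given here. Another 199 genes were higher than in kidney and lower than in lung, and 495 were lower than in kidney and higher than in lung.

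The nearer of the 2 differences had a median of 1.31 on the log2 scale among the genes higher than in both, and it exceeded 4-fold in 565 of them, 16-fold in 315 and 256-fold in 109, with genes at 0 elsewhere set to their bound. Among the genes lower than in both the median was -1.60, with 934 beyond 4-fold, 151 beyond 16-fold and 0 beyond 256-fold on the same footing. In 853 of these the 4 livers together held no more than 3 counts. The median of all genes tested was -0.34 against kidney and -0.33 against lung. With library totals in place of TMM scaling these medians were -1.01 and -1.10, and the calls split into 891 higher and 5103 lower than in both (14.9% higher, against 39.7% with TMM). The balance between higher and lower calls therefore rests on the scaling. All 891 of those genes were also called higher with TMM, but library totals lower the liver differences in general, so this overlap is no separate support.

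**Figure D2:**
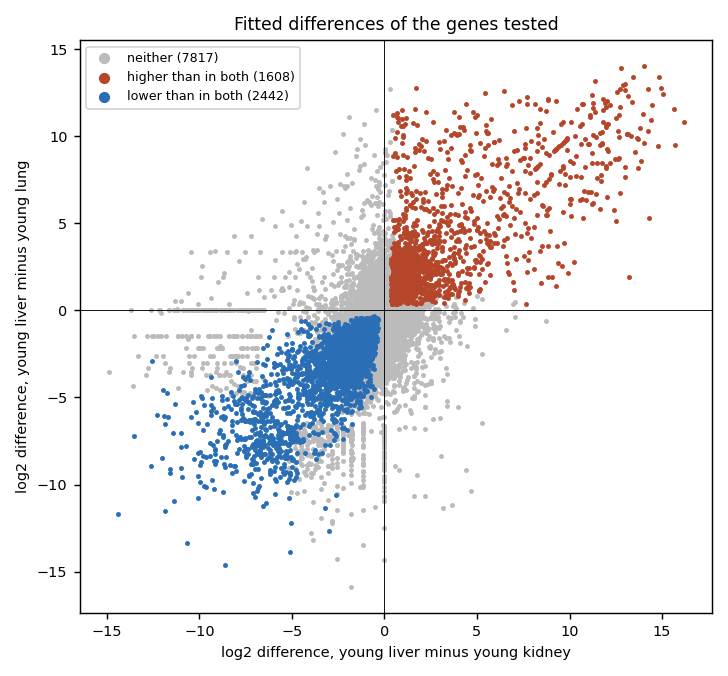
Fitted log2 differences of the 11867 genes tested, young liver minus young kidney on the horizontal axis and young liver minus young lung on the vertical axis, each point 1 gene. The 1608 genes higher than in both fill the upper right, the 2442 lower than in both the lower left, and the rows of points on lines are genes at or near 0 counts, whose fitted values depend on the prior count.

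The genes furthest above both tissues were silent or nearly so outside the liver. Abcb11 (NM_021022, chromosome 2, 69238282 to 69342616), the pump that exports bile salts into the canaliculus, was at 704, 702, 661 and 668 CPM in the livers and at 0 counts in all 8 other libraries. It was at least 2944-fold higher than in kidney and at least 2063-fold higher than in lung, taking 3 counts over each group as the floor. Cps1 (NM_001080809, chromosome 1, 67123027 to 67231267), which catalyses the first step of the urea cycle, was at 982, 1119, 972 and 887 CPM in liver, with 1 count in kidney and 0 in lung. Its ratio to kidney was 12873-fold (2307 to 508759), where the range is a 95% counting interval, and it was at least 3006-fold higher than in lung. Cyp1a2 (NM_009993, chromosome 9, 57676937 to 57683655), a P450 enzyme that metabolises caffeine, was at 2067, 2210.2, 2189.6 and 2139.7 CPM and varied little between livers. It was at least 9289.7-fold higher than in kidney, with 3 counts in lung. Uox (NM_009474, chromosome 3, 146597149 to 146631483), the urate oxidase that breaks down uric acid and whose locus overlaps Dnase2b, was at 2621, 2491, 2947 and 2604 CPM in liver, with 1 count in kidney and 3 in lung.

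The same set held Slc27a5, which activates bile acids for conjugation, at 1970.4 ± 137 CPM (SD, n = 4), and Cyp2c29, a P450 enzyme, at 1855 ± 207 CPM. It held Serpina6, the plasma carrier of corticosterone, at 487 ± 45.6 CPM, and C8b, a part of the membrane attack complex, at 682 ± 49.3 CPM. Mug1 and Mug2, related genes of the murinoglobulin protease inhibitors, were at 2005 ± 253 and 517 ± 20.9 CPM. Inhbc, an inhibin subunit, was at 264 ± 51.98 CPM, and the pseudogene Serpina4-ps1 was at 1036 ± 297 CPM. Hsd3b5, a steroid reductase known for its male pattern in mouse liver, was at 482, 425, 427 and 386 CPM, while Hsd17b6, another steroid dehydrogenase, spread from 264 to 527 CPM. All of these were at 0 to 3 counts over the 4 kidneys and over the 4 lungs.

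The genes furthest below both tissues, by the same rule, had 0 counts in all 4 livers. S100g, a calcium-binding protein of transporting epithelia whose locus overlaps Bc1 and Ctps2, was at 1454, 1399.6, 1127 and 1379 CPM in kidney and 175, 255, 186 and 231 CPM in lung. It was at least 753-fold lower in liver than in kidney and at least 118-fold lower than in lung. S100a11, another protein of the S100 family, was at 106, 100.03, 80.6 and 129 CPM in kidney and 651, 696, 673 and 655 CPM in lung, at least 57.4-fold and 379-fold above liver. Car4, a membrane carbonic anhydrase, was at 232 ± 47.3 CPM (SD, n = 4) in kidney and 188 ± 57.04 in lung, and Scnn1g, a subunit of the epithelial sodium channel, at 55.3 ± 8.47 and 69.6 ± 14.8. Col4a4, a chain of basement membrane collagen, was at 168 ± 15.7 CPM in kidney and 127 ± 30.8 in lung. Tspan1, Plxdc2, 2210011C24Rik (whose locus overlaps Mir1199), Glb1l2 and Osbpl6 completed the 10, with means between 46.6 and 123 CPM in the other tissues.

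Secreted products of hepatocytes were higher in liver than in both tissues almost throughout. All 28 plasma carrier proteins and protease inhibitors of the list tested were higher, with median log2 differences of 8.83 against kidney and 9.49 against lung, against 13.6% of all genes tested. All 18 genes of apolipoproteins and lipoprotein assembly were higher too. Apoa1, the main protein of high-density lipoprotein, was at 13246, 13179, 12195 and 13796 CPM in liver, 2.65, 1.49, 2.36 and 1.63 in kidney and 115, 1.67, 1.73 and 4.60 in lung. Of 21 coagulation and fibrinolysis genes 20 were higher, and Pros1, the anticoagulant protein S, was not called against lung. Fgb, the fibrinogen beta chain, was at 6938 ± 1128 CPM in liver (SD, n = 4), 1.87 ± 0.279 in kidney and 3.64 ± 5.01 in lung. Of 18 complement genes 17 were higher. C3, the central complement protein, was higher by 8.52 ± 0.26 against kidney and 3.69 ± 0.20 against lung on the log2 scale, and Cfb, which encodes factor B, by 1.99 ± 0.19 against kidney and 5.94 ± 0.23 against lung. In the acute phase and iron list 13 of 14 were higher, among them Hamp, the gene of the iron hormone hepcidin, at 1363, 947, 1659 and 1172 CPM in liver, 0 in every kidney and 59.1, 18.9, 21.2 and 28.4 CPM in lung. Lcn2, an acute phase protein that binds bacterial siderophores, was lower than in lung.

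The secretory pathway moved the same way with smaller differences. Of 25 genes of folding and export in the endoplasmic reticulum, 16 were higher than in both and 1, Spcs1, was lower. Over all genes tested these shares were 13.6% and 20.6%. The medians of the list were 0.78 against kidney and 1.31 against lung, beside -0.34 and -0.33 for all genes tested. Hspa5, the chaperone BiP, was at 594 ± 73.9 CPM in liver, 201 ± 37.8 in kidney and 99.6 ± 17.04 in lung, and P4hb, a protein disulfide isomerase, at 1504 ± 154, 563 ± 29.98 and 279.6 ± 72.8. Xbp1, a transcription factor of the unfolded protein response, was higher than in kidney and differed from lung by 0.10 ± 0.14, which was not called.

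Metabolic lists separated the kidney from the lung. Of 29 genes of the urea cycle and amino acid breakdown, 26 were higher than in both, beside 13.6% of all genes tested. The medians of the list were 3.82 against kidney and 8.37 against lung. Arg1, the arginase that releases urea, was at 1996, 2103, 1713 and 2155 CPM in liver, with 1 count in kidney and 12 in lung. Mat1a, which makes S-adenosylmethionine, was at 2939.8 ± 313 CPM in liver, 0.124 ± 0.249 in kidney and 9.77 ± 4.72 in lung. Ass1, the urea cycle enzyme that condenses citrulline with aspartate, was at 5848 ± 1003 CPM in liver and 4441 ± 329.8 CPM in kidney, a difference of 0.40 ± 0.19 that was not called (adjusted p = 0.0850, edgeR). It was called without liver replicate 1 (0.48), lung replicate 1 (0.40) or lung replicate 2 (0.54). Prodh and Aass were the other members not called against kidney.

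Glucose metabolism stood nearer to the kidney. Of 18 genes tested, 10 were higher than in both, 16 were higher than in lung and 11 higher than in kidney, with medians of 6.83 against lung and 1.20 against kidney. Over all genes tested these shares were 13.6%, 28.8% and 17.8%. Pck1, which controls gluconeogenesis, was at 9667, 10374, 11497 and 7758 CPM in liver, 4148, 3906, 4313 and 4337 in kidney and 27.4, 16.7, 16.5 and 24.7 in lung. Its log2 difference from kidney was 1.23 ± 0.20, and the call was lost in the fit of 30 libraries (1.21). Fbp1, a later enzyme of that pathway, was at 2271 ± 123 CPM in liver and 1840.03 ± 66.1 in kidney and was not called between them (log2 difference 0.30 ± 0.18), although it was without lung replicate 2 (0.45). Khk, the fructokinase, was at 985 ± 196 and 1059.9 ± 220.2 CPM and was not called either.

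Of 24 genes of fatty acid oxidation and ketogenesis, 14 were higher than in both, and all 24 were higher than in lung, beside 13.6% and 28.8% of all genes tested. Slc27a2, a fatty acid transport protein, was lower than in kidney with a log2 difference of -1.30 ± 0.15 and higher than in lung by 9.83 ± 0.28. Of 22 genes of cholesterol and fatty acid synthesis, 17 were higher than in both. Thrsp, a regulator of lipogenesis, was at 1995 ± 74.6 CPM in liver, 18.7 ± 2.58 in kidney and 14.1 ± 2.49 in lung, and Scd1, the stearoyl-CoA desaturase, spread from 1345 to 3265 CPM among the livers. Hmgcs1, an early enzyme of cholesterol synthesis, was lower than in kidney with a log2 difference of -0.98 ± 0.14 and higher than in lung by 1.95 ± 0.16. Oxidative phosphorylation separated the tissues differently, with 1 of 30 genes higher than in both (Uqcrq), 28 higher than in lung and 20 lower than in kidney. Over all genes tested these shares were 13.6%, 28.8% and 33.7%. With library totals the difference of Cox4i1 from lung changed sign.

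Bile acid genes were higher than in both for 16 of 18 members, beside 13.6% of all genes tested. Cyp7a1, the rate-limiting enzyme of bile acid synthesis, was at 127, 117, 174 and 144 CPM in the livers and 0 in all other libraries, at least 607-fold and 425-fold higher than in kidney and lung. Abcb4, which moves phosphatidylcholine into bile, was at 169, 178, 221 and 180.05 CPM in liver, with 4 counts in kidney and 7 in lung. Amacr, a racemase of bile acid synthesis and of branched fatty acid breakdown, was lower than in kidney. Its log2 difference was -0.43 ± 0.14 (adjusted p = 0.0100, edgeR), a call lost without lung replicate 2 (-0.29).

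Of 28 cytochrome P450 and phase 2 enzymes 26 were higher than in both, beside 13.6% of all genes tested. Cyp2e1, which oxidises ethanol and paracetamol, was at 7274, 8694, 9207 and 7948 CPM in liver, 1274, 1384, 1276 and 1531 in kidney and 43.4, 30.6, 27.7 and 28.02 in lung. Cyp2f2, known from the club cells of the airway as well as from hepatocytes, was higher than in kidney by 8.71 ± 0.26 and lower than in lung with a log2 difference of -0.62 ± 0.18. It was at 3446, 3869, 3286 and 3489 CPM in liver and 5053, 5383, 5444 and 5746 in lung, so the lungs were higher without overlap, although the call was lost in the fit of 30 libraries (-0.63). Of genes known from pericentral hepatocytes 14 of 17 were higher than in both, and of periportal ones 14 of 18, beside 13.6% of all genes tested. The periportal member Cdh1, which encodes E-cadherin, was lower. Whole tissue gives no position in the lobule, and both lists share members with lists above.

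Of 19 liver-enriched transcription factors 15 were higher than in both, beside 13.6% of all genes tested. Hnf4a was at 876, 867, 1007 and 900.2 CPM in liver, 648, 616, 578 and 629 in kidney and 1.57, 0, 0.866 and 0.837 in lung, so that its difference was 0.56 ± 0.15 from kidney and 9.92 ± 0.27 from lung on the log2 scale. Creb3l3, a factor of the endoplasmic reticulum that governs hepcidin and lipid genes, was at 919.8 ± 73.5 CPM in liver, 1.17 ± 0.468 in kidney and 0.402 ± 0.554 in lung. Cebpa was higher by 3.97 ± 0.17 against kidney and 2.15 ± 0.16 against lung. The Hnf4a difference from kidney changed sign with library totals in place of TMM, and its call was lost in the fit of 30 libraries (0.54).

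Genes known to be male-biased in mouse liver were higher than in both for 9 of 12 members tested, beside 13.6% of all genes tested. Of the 4 female-biased genes tested 0 were, and 8 of the 14 listed were at 0 counts in every liver. Mup3, of the major urinary proteins, was at 8195, 4783, 2451 and 3191 CPM in the livers, 0 in kidney and 2.35, 0, 1.30 and 5.86 CPM in lung. It took 86.6% of the liver counts of the 21 Mup genes in the table, which are so alike that this division is uncertain. Cyp2a4, a female-biased steroid hydroxylase, was at 13.2, 2.09, 40.8 and 15.7 CPM in liver and 538, 639, 595 and 679 in kidney, and its close relative Cyp2a5 may share reads with it. Igf1, the growth factor that liver releases under growth hormone, was at 1813, 1672, 1494 and 1814 CPM in liver, 7.95, 8.71, 13.1 and 14.3 in kidney and 15.3, 17.3, 11.3 and 10.04 in lung.

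**Figure D3:**
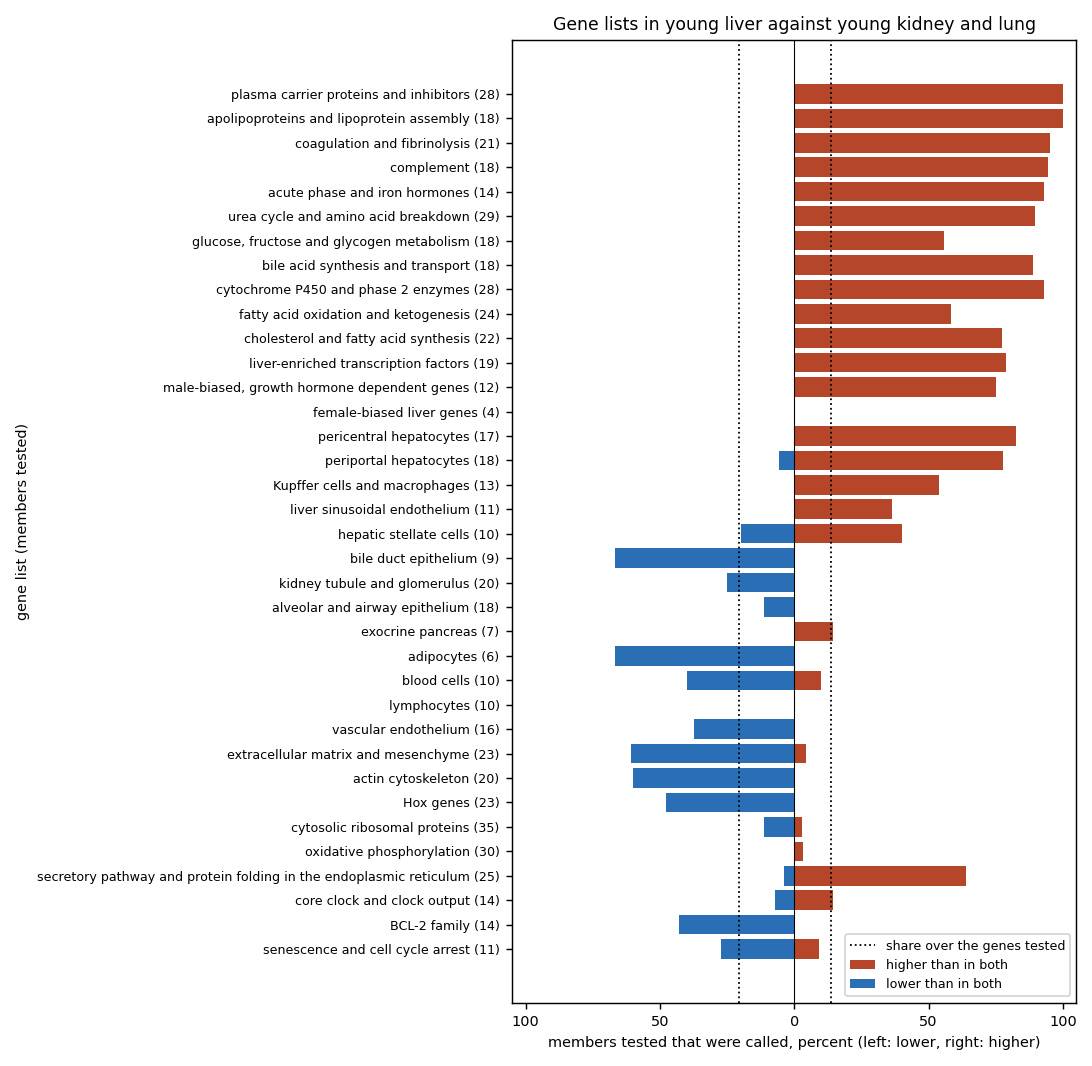
Share of the tested members of each gene list that were called higher (right) or lower (left) in young liver than in both young kidney and young lung, with the number tested in brackets. The dotted lines mark the shares over all genes tested, 13.6% higher and 20.6% lower, and the plasma carrier and apolipoprotein lists reach 100% higher, the female-biased list has 0 of 4 higher, and the matrix, actin and bile duct lists lie to the left of the second line.

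Non-parenchymal cells of the liver showed in part. In bulk tissue, more cells of a type and more RNA per cell cannot be told apart. Of 13 Kupffer cell and macrophage genes 7 were higher than in both, against 13.6% of all genes tested. Among them was Clec4f, a lectin known from Kupffer cells, at 154, 247, 210.4 and 211 CPM in liver, 0 in kidney and 2.74, 0, 0.433 and 0 CPM in lung. Cd5l was at 128 ± 15.6 CPM in liver and at 0 in kidney. Csf1r, the receptor of a macrophage growth factor, was lower than in lung with a log2 difference of -1.48 ± 0.17. C1qb, a complement gene of macrophages, was lower than in lung with a log2 difference of -0.51 ± 0.18, a call lost without liver replicate 1 (-0.41) or lung replicate 2 (-0.35). Of 11 sinusoidal endothelium genes 4 were higher than in both, against the same 13.6%. Clec4g was at 121 ± 27.96 CPM in liver, 0 in kidney and 1.41 ± 0.523 in lung. Lyve1, a hyaluronan receptor shared with lymphatic vessels, was at 5.97 ± 4.26 CPM in liver and 273 ± 71.3 in lung. Stellate cell genes split, with Reln, Hand2, Colec11 and Vipr1 higher and Des and Pdgfrb lower than in both.

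Bile duct, matrix and actin lists held more lower calls than higher ones. Of 9 bile duct genes tested 6 were lower than in both, against 20.6% of all genes tested. Of the 12 listed, 8 had no more than 3 counts over the 4 livers, Krt19 and Krt7 among them. Such members, where tested, passed the filter through kidney or lung, so nothing is read from these calls. Epcam, an adhesion protein of epithelia, had log2 differences of -3.64 ± 0.39 against kidney and -2.85 ± 0.43 against lung. Of 23 extracellular matrix genes 14 were lower and 1, Fn1, was higher. Fn1 encodes fibronectin, which hepatocytes also release into plasma, and was at 731, 1045, 906 and 736 CPM in liver, 13.2, 10.9, 18.6 and 12.2 in kidney and 55.6, 69.6, 54.1 and 56.05 in lung. Mgp, an inhibitor of calcification, was at 16.99 ± 9.31 CPM in liver, 564 ± 65.97 in kidney and 11773 ± 2116 in lung. Of 20 actin cytoskeleton genes 12 were lower and 0 higher, with Tmsb4x, a monomer-binding thymosin, at 55.6, 90.1, 30.1 and 33.9 CPM in liver, 282, 292, 279 and 294 in kidney and 1463, 1289.5, 1099 and 1570.1 in lung. Of 16 vascular endothelium genes 6 were lower than in both, and all 16 were lower than in lung, beside 20.6% and 40.6% of all genes tested.

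Hox genes, which set position along the body axis, were near silent in liver. Of the 28 listed, 20 had 0 counts in every liver, and the sum over all 28 was 23.8, 12.6, 10.7 and 0 CPM in the livers against 802 to 886 CPM in kidney and 258 to 307 CPM in lung. All 23 tested were lower than in kidney and 11 lower than in both, beside 33.7% and 20.6% of all genes tested. Of the 28, 25 had no more than 3 counts over the 4 livers. Most tested members therefore passed the filter through kidney or lung, and nothing is read from these calls. Hoxa5 was at 5.29, 4.19, 0 and 0 CPM in liver, 32.9, 34.3, 34.4 and 32.7 in kidney and 149, 111, 147 and 169 in lung. Ribosomal protein genes differed little, with 1 of 35 higher (Rpl4, whose difference from kidney changed sign with library totals in place of TMM) and 4 lower than in both and medians of -0.05 and -0.43, beside -0.34 and -0.33 for all genes tested. Of 14 clock genes Nr1d2 and Bhlhe40 were higher and Tef lower than in both, where the call of Tef against lung was lost without lung replicate 2 (-0.35). These few calls stand beside 13.6% higher and 20.6% lower over all genes tested.

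The study targets BCL-2 family proteins and senescent cells. Of 14 BCL-2 family genes, which include the targets of ABT-737, 0 were higher than in both and 6 were lower, beside 13.6% and 20.6% of all genes tested. Bcl2 was at 15.9, 2.09, 2.15 and 0 CPM in liver, 35.9, 37.1, 33.1 and 24.5 in kidney and 24.3, 32.3, 30.8 and 25.5 in lung, a difference of -2.79 ± 0.44 against kidney and -2.56 ± 0.46 against lung. Bcl2l1, which encodes BCL-XL, was at 71.5, 132, 77.3 and 60.02 CPM in liver, 148, 129, 121 and 114 in kidney and 172, 162, 221 and 115 in lung. Its call against kidney (-0.56 ± 0.21, adjusted p = 0.0257, edgeR) was lost without kidney replicate 1 (-0.51), liver replicate 1 (-0.50), liver replicate 3 (-0.53), liver replicate 4 (-0.45) or lung replicate 2 (-0.43). Mcl1 was at 115 ± 6.69 CPM in liver, 99.6 ± 10.8 in kidney and 291 ± 39.9 in lung, and was called lower than in lung but not against kidney. Of 11 senescence and cell cycle arrest genes 3 were lower than in both, and 1, Gdf15, a stress hormone, was higher, again beside 20.6% and 13.6% of all genes tested, and nothing is read from these small counts. Cdkn1a, the gene of the inhibitor p21, was at 5.29, 10.5, 6.44 and 5.22 CPM in liver, 29.9, 26.6, 23.6 and 23.3 in kidney and 295, 382, 276 and 251 in lung. Cdkn2a and Il6 did not pass the expression filter.

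Marker sums checked the labelled tissues. The 20 kidney tubule and glomerulus genes summed to 23726 to 25394 CPM in kidney and 134 to 185 CPM in liver, with 11 of the 20 at 0 in every liver. The 18 alveolar and airway genes summed to 47141 to 57227 CPM in lung and 3561 to 4167 CPM in liver, where Cyp2f2 makes up most of the sum and Sftpb was at 0. Plasma carrier genes summed to 259823 to 282006 CPM in liver. In lung they summed to 2154, 1749, 1692 and 1824 CPM, with replicate 1 highest. Ahsg, at 102, 17.8, 4.76 and 27.6 CPM in lung, and Apoa2, at 69.3, 5.01, 5.63 and 11.7, were also highest in lung replicate 1. Without that library 1629 genes were higher and 2436 lower than in both, and 1582 of the 1608 and 2370 of the 2442 were kept. The source of the hepatocyte transcripts in that library was not tested.

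Exocrine pancreas genes summed to 521, 134, 83.7 and 149 CPM in the livers, 268 to 308 in kidney and 55.4 to 132 in lung. Of the 7 tested, 1, Cela3b, was higher than in both, beside 13.6% of all genes tested, so nothing is read from this count. Cela3b was at 50.3, 4.19, 6.44 and 10.4 CPM in the livers, so that liver replicate 1 was apart from the rest. The source of these pancreas transcripts was not tested. Blood cell genes summed to 2287, 1009.8, 729.9 and 1362 CPM in liver, 7463, 1867, 1550.3 and 1397 in kidney and 2227, 1519, 2933 and 1817 in lung, with kidney replicate 1 far above the other kidneys. The tissues were taken after perfusion according to the methods. The call of Hbb-b1, a beta globin near-identical to Hbb-bs, against kidney (log2 difference -1.17 ± 0.40) was lost without kidney replicate 1 (-0.26), liver replicate 2 (-1.05) or liver replicate 3 (-0.93). Alas2, the heme synthesis enzyme of erythroid cells, was at 177, 166, 219 and 243 CPM in liver, 32.2, 4.98, 6.56 and 5.31 in kidney and 4.31, 5.57, 8.23 and 7.53 in lung, higher in liver without overlap, although the globin genes of the same list were lower or not called. Of 10 lymphocyte genes 9 were lower than in lung and 0 lower than in kidney, beside 40.6% and 33.7% of all genes tested. Of the 16 lymphocyte genes with an entry, 12 had no more than 3 counts over the 4 livers.

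**Figure D4:**
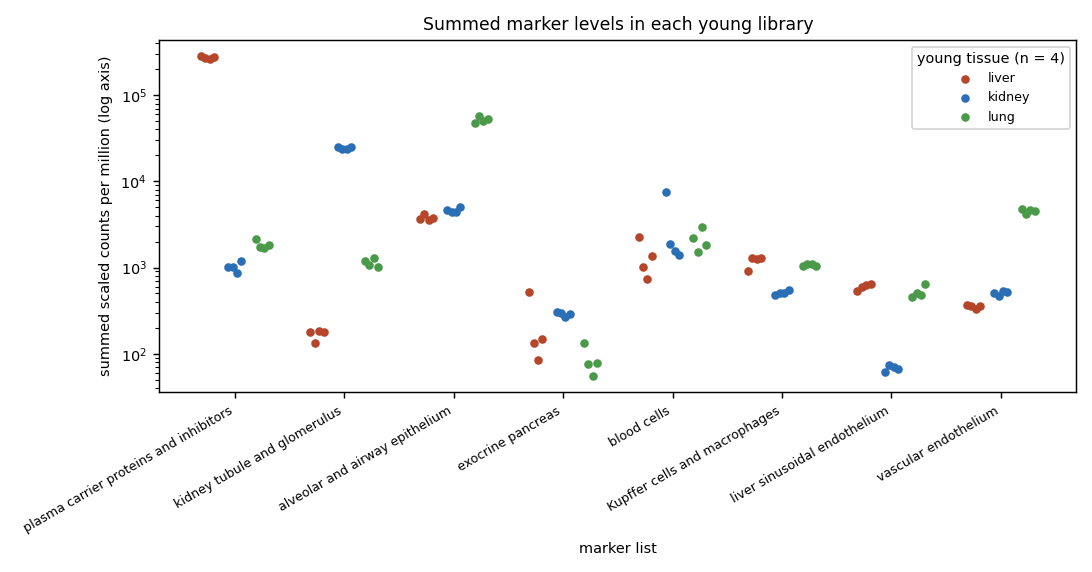
Summed levels of 8 marker lists in each of the 12 young libraries, in scaled CPM on a log axis, each point 1 library. Each tissue is high in its own epithelial list, liver replicate 1 is highest among livers for pancreas and blood genes, and kidney replicate 1 is highest among kidneys for blood genes.

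The 4 livers differed most among themselves in a few genes. The median SD of log2 CPM over the 1560 genes with at least 50 mean counts in liver was 0.197, and it reached 1.52 for Saa2 and 1.33 for Saa1, the serum amyloid proteins of the acute phase, which are near-identical. Saa1 was at 138, 846, 107 and 206 CPM and Saa2 at 34.4, 419, 66.5 and 78.3 CPM, both highest in replicate 2. Angptl8, a hormone gene induced by feeding and insulin whose locus overlaps Dock6, was at 52.9, 155, 309 and 318 CPM, lowest in replicate 1. Fkbp8, a chaperone that binds BCL-2, was at 95.3, 277, 316 and 538 CPM, and its call against kidney (0.72 ± 0.27, adjusted p = 0.0267, edgeR) was lost without liver replicate 3 (log2 difference 0.69), liver replicate 4 (0.31), kidney replicate 2 (0.62) or kidney replicate 3 (0.66). The feeding state of the mice was not given in the labels.

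**Figure D5:**
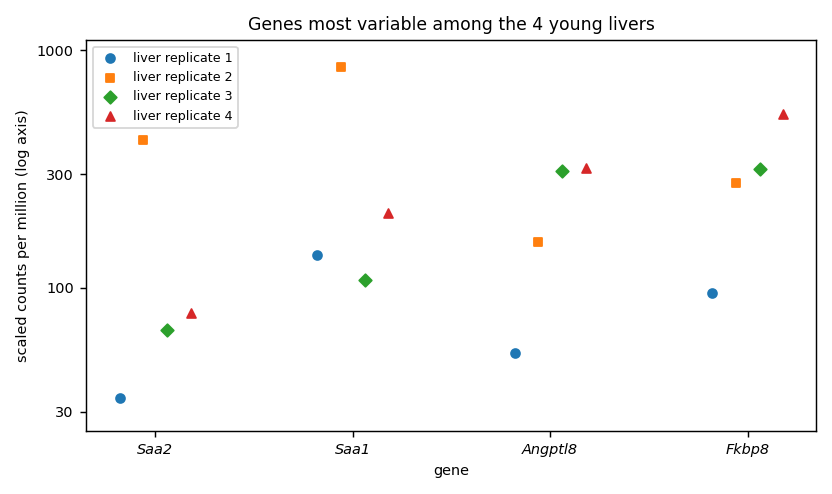
Levels of 4 of the 5 genes with the largest SD of log2 level among the 4 young livers, in scaled CPM on a log axis, with 1 symbol for each liver. Replicate 2 stands above the others for Saa1 and Saa2, and replicate 1 below the others for Angptl8 and Fkbp8.

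Several of the genes higher than in both lay side by side. On chromosome 12 (mm10, 103616675 to 104153872), 12 of 13 genes tested in the Serpina cluster were higher than in both. Between 22892015 and 23082078 on chromosome 16, all 5 genes tested were, which are Ahsg, Fetub, Hrg, Kng2 and Kng1. On chromosome 7 (19671579 to 19822755), 7 of 10 tested around Apoe were, including Apoc1, Apoc2 and Apoc4. The Ugt1a genes of chromosome 1 share exons and cannot be counted apart. Across the genome, 48.3% of the genes higher than in both lay within 100 kb of another, against 51.4% of those lower than in both, and 90.5% of all genes tested lay within 100 kb of another tested gene. The 3 sets differ in size, so these shares are not compared.

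The comparison was repeated in old mice given vehicle, which share no library with the young mice. There 931 of 11318 genes tested were higher in liver than in both (8.23%) and 810 lower (7.16%). Of the 1608 genes higher in young liver, 1512 were tested, 1337 had the same direction against both tissues, 800 (52.9%) were called again and 1 was called the other way. Of the 2442 lower in young liver, 2315 were tested, 1962 had the same direction, 696 (30.1%) were called again and 4 the other way. The 800 and the 696 each made up 85.9% of the calls in old vehicle mice. In mice given ABT-737 the counts were 880 and 1141. The old vehicle livers held 223957, 847846 and 891116 counts, and Alb took 0.911%, 3.37% and 2.75% of them, so these livers differed more among themselves than the young ones. Without vehicle liver replicate 5, 409 of the lower genes were called again.

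The difference of liver from the mean of kidney and lung changed between young and old vehicle mice for 700 of 12835 genes (5.45%), larger in young mice for 337 and smaller for 363, by a test of the change itself. Of these, 181 were among the genes higher than in both and 213 among those lower. The count was 372 without vehicle liver replicate 4, 398 without young liver replicate 3 and 1160 without vehicle lung replicate 4. Ttr was among them, with a difference of -2.46 on the log2 scale, young minus old (adjusted p = 0.0315, edgeR). Its levels were 15689 CPM in young and 11345 in old liver, 305 and 93.1 in kidney and 7.54 and 0.408 in lung, on the scale of the fit of all 21 libraries, so the ratio of young to old was larger in kidney and lung than in liver, and these single ratios were not tested.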

How the data were processed

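Transcripts were counted in 3′-end RNA libraries of young liver, kidney and lung, 4 each, taken from a table of 30 libraries. The authors deposited raw read counts per RefSeq transcript, without normalization, and the submitters' processing notes name bcl2fastq, HISAT 0.1.5, HOMER and mm10 without their roles. Whether molecular identifiers were collapsed and whether strand was used are not given in the sources used here, so overlapping genes cannot be told apart, and intervals and floors cover counting error only. The skin libraries were not used here. Members and gene lists were chosen with earlier results of these data known.

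Genes passing edgeR's filter (11867 of 24537) were fitted over the 12 libraries with edgeR 4.0.16 in R 4.3.3, using TMM scaling and the quasi-likelihood test, and called at a Benjamini-Hochberg adjusted p under 0.05 in both comparisons. The biological coefficient of variation was 14.3%. Scaled CPM are CPM taken over the tested genes' total times the TMM factor. The test was checked on simulated data with equal means in all tissues except for 200 genes changed in liver. There 100% of 4-fold and 63.5% of 2-fold changes were recovered. With so few changed genes, this check cannot speak to the scaling of the real libraries. The old mice were fitted separately, and the change with age in 1 fit of young and vehicle libraries. The text names the 15 genes furthest above and the 10 furthest below both tissues by the nearer difference, without overlap, the 10 with the largest shares, the 5 most variable in liver with at least 50 mean counts, and up to 4 members of each list with the highest level. Further members were chosen after their values were seen, which holds for Pros1, Lcn2, Arg1, Prodh, Aass, Cyp7a1, Abcb4, Hmgcs1, Cebpa, Cdh1, Clec4f, Cd5l, Clec4g, Reln, Hand2, Colec11, Vipr1, Epcam, Sftpb, Cela3b, Alas2, Uqcrq, Hspa5, Spcs1, Nr1d2, Bhlhe40, Bcl2 and Gdf15. The alternatives were DESeq2 1.42.0, other scalings, filters, thinning, fold thresholds, 30 libraries, a replicate block and leaving out each library. The libraries with the same number were not taken as pairs, and p-values measure the spread between samples. Some results on single genes are not reported here.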

Additional observations from a re-analysis of the deposited data

Results flagged for a closer look

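Over 40 named genes with enough counts, 69 groups of 4 libraries were checked for a library far from the others by Dixon's ratio, which chance flags in about 1 of 20 groups. That rate does not hold for Saa1 and Saa2 in liver, which were chosen for their spread among these same livers. They are also near-identical, so their flags are not separate. Saa1 stood at 846 CPM in liver replicate 2, against 107 to 206 CPM in the other livers, and Saa2 at 419 CPM in the same liver, against 34.4 to 78.3 CPM. Apoa2 was at 21536 CPM in liver replicate 1, against 16934 to 17128 CPM in the others. In lung replicate 1 Apoa2 was at 69.3 CPM, against 5.01 to 11.7 CPM in the other lungs. Tspan1 was at 78.4 CPM in kidney replicate 4, against 62.5 to 64.7 CPM in the other kidneys.

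Of 40 named genes tested, 3 had a liver difference from the mean of kidney and lung that differed between young and old vehicle mice by edgeR's test of the change. For genes at 0 counts in whole groups the test could not decide, so the other genes are not shown to be unchanged. Hsd3b5, for example, was at 429 CPM in young and 5.97 CPM in old vehicle liver and at 0 in kidney and lung, with an SE of 19778. For S100a11 the change was -7.33 on the log2 scale, young minus old (adjusted p = 0.0286). S100a11 was at 0 in young liver and at 7.72 ± 5.57 CPM (SD, n = 3) in old vehicle liver, so the fitted value depends on the prior count. For 2210011C24Rik it was -6.96 (adjusted p = 0.00754, edgeR), with 0 in young liver and 7.07 ± 3.56 CPM in old vehicle liver. For Ttr it was -2.46 (adjusted p = 0.0315, edgeR), with Ttr at 15689 ± 3263 CPM in young liver and 11345 ± 3962 CPM in old vehicle liver.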

How the results depend on the processing

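Liver depth limits the genes near 0 there. With library totals in place of TMM, 891 genes were higher and 5103 lower than in both. With at least 10 counts in every library, 3640 genes were tested, 2099 were called against kidney and 2717 against lung, and 701 were higher and 557 lower than in both. Thinning to the smallest library gave 1518 lower. Asking for a log2 difference over 1 gave 1009 higher, and glmTreat gave 3097 against kidney, 5297 against lung, 784 higher and 1156 lower. Under DESeq2, DESeq2's size factors, a filter of 1 count and 30 libraries, counts stayed between 1359 and 1907 higher and 2001 and 2240 lower. Without single libraries they ranged from 1470 to 1870 and from 2086 to 2458. With the replicate block the counts were 1601 and 2421, with 2104 higher and 3981 lower than in kidney and 3421 and 4810 than in lung. In a pairing check over 5159 genes, same-numbered libraries had correlations between -0.035 and 0.090, so the numbers were not taken as pairs. These are not correlations of whole library levels. Those were 0.622 to 0.633 between liver and kidney and 0.408 to 0.444 between liver and lung. The repeat of the lower genes gave 1141 with ABT-737, and from 409 to 795 without single vehicle libraries. The change with age ranged from 372 to 1160 without single libraries. With library totals the difference from kidney reversed for Hnf4a (-0.11), Ghr (-0.49), Csf1r (-0.50), Actb (-0.39), Rplp1 (-0.43), Rpl8 (-0.55), Rpl4 (-0.073), Dbp (-0.43) and Mcl1 (-0.47). That from lung reversed for Aldh1a1 (-0.39), C1qa (-0.31), Cox4i1 (-0.56), Xbp1 (-0.69), Dbp (-0.30), Hlf (-0.35) and Glb1 (-0.19). With at least 10 counts in every library it reversed for C1qa (-0.018), Xbp1 (-0.39), Dbp (-0.011) and Hlf (-0.060). The cause was not tested beyond the shift of all genes under library totals. Of the other gene differences under these settings, 2912 kept their call, 122 lost it and 40 gained one. Among genes named in the report, the fit of 30 libraries also lost the calls of Fkbp8, Amacr, Hbb-b1, Rpl4, Bcl2l1 and Cox4i1 against kidney and of C1qb against lung, and DESeq2 called Ass1 and Fbp1 against kidney.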

Other observations

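In the old vehicle livers Saa1 took 0.0969%, 0.782% and 1.88% of the counts in replicates 3, 4 and 5, so these 3 livers differed more than the 4 young ones did. In livers of mice given ABT-737, Saa1 took 0.0748%, 0.0171% and 0.0209%. Further runs of neighbouring genes higher in young liver than in both held 7 of 8 tested on chromosome 3 (mm10, 107926334 to 108146152), among them Gstm1, Gstm3, Gstm4, Gstm6 and Gstm7, glutathione transferases of alike sequence. Another run held 5 of 8 tested on chromosome 17 (34728381 to 34882100), among them the complement genes C2, Cfb, C4a and C4b, of which the last pair is near-identical.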
